A study of Bos taurus with 6 samples.

Results

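The miRNAs described here are 7 mature bovine miRNAs that are best known from blood cells, namely bta-miR-451, bta-miR-144, bta-miR-486, bta-miR-223, bta-miR-142-5p, bta-miR-142-3p and bta-miR-150. They were taken by name from the 512 miRNAs listed for extracellular vesicles (EVs), the small membrane particles that cells release, and all 7 were listed in each library. EVs came from the spent medium of bovine granulosa cells, the somatic cells that line the ovarian follicle. The cells were aspirated from follicles of 3 to 6 mm in ovaries of slaughtered animals, were treated with a red blood cell lysis buffer before culture, and were grown with 10% exosome-depleted fetal bovine serum. After a first day at 37 °C, they were either kept at 37 °C (control-EVs, 3 libraries) or exposed to heat stress at 42 °C (HS-EVs, 3 libraries) for 24 h. EVs were precipitated from the medium with a polymer reagent (ExoQuick-TC), which does not select for vesicles of 1 cell type. The protocol gives the same preparation of the cells and the same serum supplement for both groups, but shared cell pools or serum lots are not stated. No library of medium without cells was analysed here.

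Blood lineages differ in the miRNAs they make in abundance. miR-144 and miR-451 are cut from the same transcript, which the factor GATA1 switches on in red cell precursors, and miR-451, whose short hairpin is cut by AGO2 rather than by Dicer, makes up a large part of the miRNA of red cells. miR-486 comes from an intron of ANK1, a gene of the red cell membrane skeleton that is also read in striated muscle, and it is plentiful in both tissues. miR-223 is the leading miRNA of neutrophils and monocytes, miR-142 yields 2 used arms (5p and 3p) in all white cells, and miR-150 is a miRNA of mature B and T cells that represses the factor MYB. Several of them, miR-451 and miR-486 above all, are also common in plasma and serum.

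In the RefSeq gene table of the ARS-UCD2.0 assembly, all 7 members matched a gene, and both arms of miR-142 belonged to the same one, MIR142. MIR451 and MIR144 were each other's nearest genes, next to ERAL1. MIR486 lay within ANK1, MIR142 within the bounds of TSPOAP1 and MIR223 within those of VSIG4. The files were made on another assembly (UMD3.1), so that no positions are given.

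Values are normalized read counts (TMM, a scaling by the bulk of the miRNAs). Each value was a whole multiple of the smallest one in its library, which was taken as 1 read. By this count, which in every library came to more than the miRNA-mapped reads listed in the supplement of the study for a reason not given there, the libraries held 274434 to 2360980 reads, of which bta-miR-1246 alone took 59.9% to 98.6%, and that left 34141 to 235634 reads on all other miRNAs. HS-EVs replicate 1 stood apart with the highest share of bta-miR-1246 and the fewest other reads, so that 1 read was worth 4.11 normalized counts there and 0.697 to 1.98 in the remaining libraries. The log2 fold changes and ratios of the members are therefore also given without this library. Of the 7 miRNAs fixed as granulosa cell markers, bta-miR-21-5p (10154 ± 4040 in control-EVs and 11099 ± 4160 in HS-EVs, mean ± SD, n = 3) and bta-miR-202 (1839 ± 151 and 1525 ± 538) were abundant, but bta-miR-383 and bta-miR-212 had only 2 reads and 1 read in all 6 libraries together.

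The 7 blood cell miRNAs made up a small part of the EV reads in both groups, and bta-miR-486 was the highest of them throughout. None of the 7 was called between HS-EVs and control-EVs (an adjusted p of 0.3 or less with a log2 fold change of 1 or more in size, the threshold of the study), and by limma none of the 512 miRNAs was (0%). The study applied this threshold to its own edgeR test and reported several miRNAs enriched in HS-EVs, none of them among the 7. Its supplement also lists bta-miR-150 and bta-miR-181a as higher in HS-EVs, with adjusted p-values far above the threshold. In control-EVs replicates 1, 2 and 3 the 7 members held 884, 1216 and 422 reads. This was 1.15% (95% Wilson interval 1.08 to 1.23), 0.516% (0.488 to 0.546) and 0.574% (0.522 to 0.631) of the reads left once bta-miR-1246 was set aside. In HS-EVs they held 268, 536 and 466 reads, or 0.785% (0.697 to 0.884), 0.434% (0.399 to 0.472) and 0.537% (0.491 to 0.588). The groups overlapped, and the libraries numbered 1 had the highest share in each of them. Because each mature miRNA is covered by a single read, levels of different miRNAs could be set side by side without a length correction, although ligation favours some sequences over others. bta-miR-486 was the most abundant member, with a mean over the 6 libraries that ranked 40 of 512, and it exceeded bta-miR-142-5p (rank 75) in 6 of 6 libraries by 3.50 times on the means. bta-miR-142-5p exceeded bta-miR-223 (rank 126) in 6 of 6 libraries by 3.45 times, with no overlap of their ranges. The next members, bta-miR-150, bta-miR-451 and bta-miR-142-3p (ranks 140, 146 and 157), were not separated beyond their spread. bta-miR-223 led bta-miR-150 in 4 of 6 libraries, bta-miR-150 led bta-miR-451 in 3 of 6 and bta-miR-451 led bta-miR-142-3p in 3 of 6. bta-miR-144 was lowest at rank 220, under bta-miR-142-3p in 5 of 6 libraries.

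**Figure D1:**
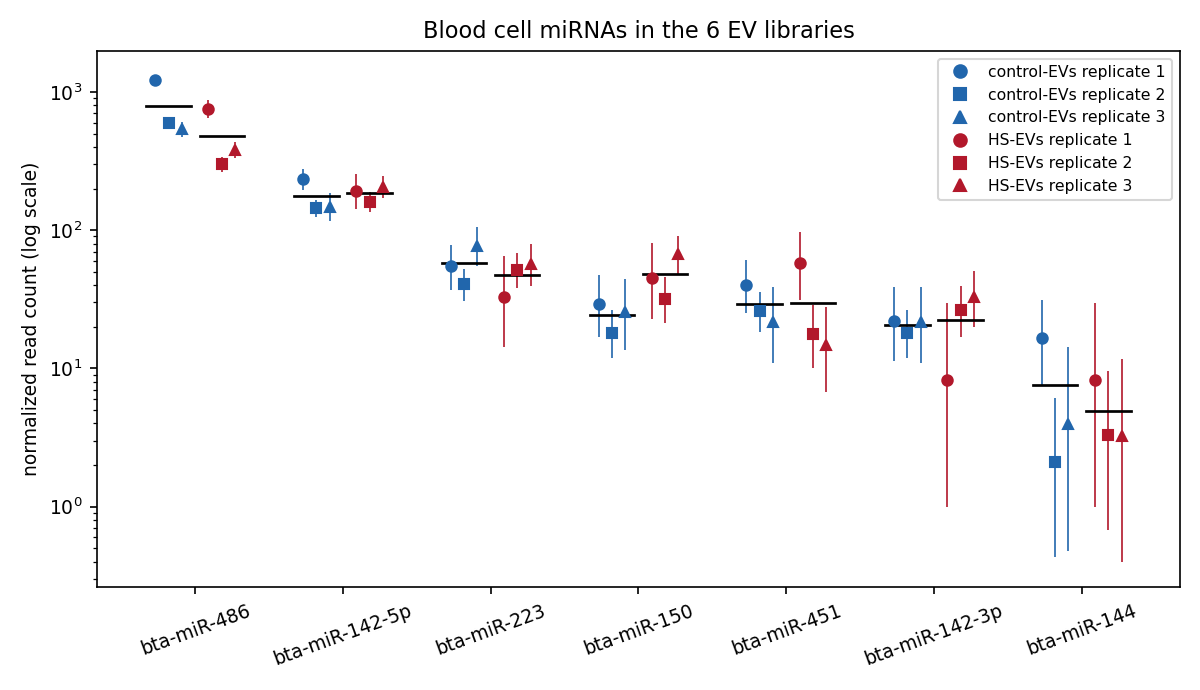
Normalized read counts (log scale) of the 7 blood cell miRNAs in each EV library. Points are libraries, thin bars are exact 95% Poisson intervals of the reads, and black lines are group means (n = 3). The groups do not overlap for bta-miR-150 and overlap for the other members, and bta-miR-486 is the highest member in every library.

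Among the erythroid miRNAs, bta-miR-486 carried nearly all of the signal. Its normalized read count was 1226, 599 and 535 in control-EVs replicates 1 to 3 (668, 859 and 271 reads) and 756, 299 and 380 in HS-EVs replicates 1 to 3 (184, 272 and 233 reads). HS-EVs replicates 2 and 3 lay below all control libraries, whereas HS-EVs replicate 1 lay above 2 of them. The mean was 787 ± 382 in control-EVs and 478 ± 244 in HS-EVs (SD, n = 3). The log2 fold change, on the log2(count + 1) scale and with HS-EVs against control-EVs throughout, was -0.73 (SE 0.54, 95% interval -1.94 to 0.48, limma adjusted p = 0.873). The exact permutation test of the counts gave p = 0.4. The value depended on single libraries. It was -1.12 without HS-EVs replicate 1 (limma adjusted p = 0.68), -0.36 without control-EVs replicate 1 (limma adjusted p = 0.777) and -0.45 without HS-EVs replicate 2 (limma adjusted p = 0.767). No adjusted p for this member was under 0.418 in any setting tried.

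bta-miR-451, the most erythroid-restricted member, was present at 40.4, 25.8 and 21.7 in control-EVs (22, 37 and 11 reads) and at 57.5, 17.6 and 14.7 in HS-EVs (14, 16 and 9 reads). HS-EVs thus held both the highest and the 2 lowest values. The means were 29.3 ± 9.81 and 29.9 ± 23.9, while the log2 fold change was -0.19 (SE 0.59, interval -1.50 to 1.12, limma adjusted p = 0.952), so the difference of the means and the log2 fold change had opposite signs. Without HS-EVs replicate 1 the log2 fold change was -0.78, and it turned to values of up to 0.17 when control-EVs replicate 1 or one of the other HS-EVs libraries was left out.

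bta-miR-144, which is cut from the same transcript as miR-451, was near the limit of counting. It had 9, 3 and 2 reads in control-EVs and 2, 3 and 2 reads in HS-EVs, equal to 16.5, 2.09, 3.95, 8.22, 3.30 and 3.26 normalized counts. A floor of 3 reads corresponds to 2.09 to 12.3 normalized counts, and 5 of the 6 libraries were at or under it. bta-miR-144 was the one member that failed the study's detection criterion, a count of 10 or more in at least 2 libraries of a group, and it failed it in both groups. Its log2 fold change of -0.22 (SE 0.67, limma adjusted p = 0.952) rested on control-EVs replicate 1 and was 0.50 without it, while it was -0.59 without HS-EVs replicate 1.

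For each of the 3 erythroid members, the 2 highest of the 6 values were those of control-EVs replicate 1 and HS-EVs replicate 1. For bta-miR-144 the value of HS-EVs replicate 1 was only 2 reads and under the floor, so the order could be counted for bta-miR-486 and bta-miR-451 alone. No leukocyte member had this order, and of all 512 miRNAs 37 had it (7.23%). Among the 130 miRNAs with 10 or more reads in every library 18 had it (13.8%). The study calls the libraries biological replicates, but whether same-numbered libraries share a source is not stated, and this order was noticed after the values had been seen. Striated muscle, the other known source of miR-486, was checked through bta-miR-1, bta-miR-133a and bta-miR-206, all with reads in each library. Their summed count was 562, 969 and 522 in control-EVs and 1578, 227 and 510 in HS-EVs, so it was highest in HS-EVs replicate 1 while bta-miR-486 was highest in control-EVs replicate 1. The part of muscle RNA in the bta-miR-486 values was not tested.

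Of the leukocyte members, bta-miR-142-5p varied least. It was at 233, 144.3 and 148 in control-EVs (127, 207 and 75 reads) and at 193, 159 and 205 in HS-EVs (47, 145 and 126 reads), a coefficient of variation of 19.7% over the 6 libraries. The HS-EVs values all fell inside the range of control-EVs. The means were 175 ± 50.2 and 186 ± 23.8, with a log2 fold change of 0.11 (SE 0.44, interval -0.87 to 1.10, limma adjusted p = 0.955), and 0.08 without HS-EVs replicate 1. bta-miR-142-3p, the arm that pairs with it in the hairpin, was lower in every library. It was at 22.03, 18.1 and 21.7 in control-EVs (12, 26 and 11 reads) and at 8.22, 26.4 and 32.6 in HS-EVs (2, 24 and 20 reads). HS-EVs replicate 1, with only 2 reads, held the lowest value and the other HS-EVs libraries the 2 highest. The log2 fold change of -0.08 (SE 0.56, interval -1.32 to 1.16, limma adjusted p = 0.974) was 0.49 without HS-EVs replicate 1.

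bta-miR-223, the myeloid member, was at 55.1, 40.4 and 77.1 in control-EVs (30, 58 and 39 reads) and at 32.9, 51.7 and 57.0 in HS-EVs (8, 47 and 35 reads). The highest value belonged to control-EVs replicate 3 and the lowest to HS-EVs replicate 1, with overlap between the groups. The means were 57.5 ± 18.4 and 47.2 ± 12.7, and the log2 fold change was -0.27 (SE 0.47, interval -1.32 to 0.78, limma adjusted p = 0.892). It came to -0.03 without HS-EVs replicate 1 and to -0.04 without control-EVs replicate 3.

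bta-miR-150, the lymphoid member, was the only one whose groups did not overlap. It was at 29.4, 18.1 and 25.7 in control-EVs (16, 26 and 13 reads) and at 45.2, 31.9 and 66.8 in HS-EVs (11, 29 and 41 reads). Each HS-EVs library was above each control library, with means of 48.0 ± 17.6 and 24.4 ± 5.73. The log2 fold change was 0.91 (SE 0.47, interval -0.15 to 1.97, limma adjusted p = 0.873). The exact permutation test gave p = 0.1, the smallest that 3 against 3 libraries allow. Over the leave-one-out fits the value stayed between 0.64 and 1.17, and it was 0.92 without HS-EVs replicate 1. When counts were scaled by all reads instead, it was -0.52, but that scaling moved the median of all 512 miRNAs to -0.79, so bta-miR-150 lay 0.27 above the median there and 0.90 above it in the deposited scaling.

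At an unadjusted p of 0.05 or less limma found 0 of 7 members and 25 of 512 miRNAs (4.88%). Counts of the recovered reads gave 1 member at that level by edgeR's quasi-likelihood test (bta-miR-150, edgeR adjusted p = 0.752), where 26 of 512 miRNAs reached it (5.08%), and 0 by DESeq2, where 10 of the 510 tested did (1.96%). Neither tool called a member, and over all miRNAs edgeR called 3 (0.586%) and DESeq2 called 0 (0%). One of 7 members against 33 of 512 miRNAs (6.45%) had groups that did not overlap, a single miRNA from which nothing can be read about the members as a group. The log2 fold change was above 0 for 2 members and below 0 for 5, with a median of -0.19 against 0.01 over all miRNAs. The 95% intervals were widest for bta-miR-144 (-1.73 to 1.28) and narrowest for bta-miR-142-5p. A log2 change of 1 in size lay inside all 7 intervals in at least 1 direction, so a change of that size was not excluded for any member, although the intervals of bta-miR-142-5p and bta-miR-150 did not reach -1 and those of bta-miR-486 and bta-miR-223 did not reach 1. In these bulk EV preparations, a smaller number of vesicles from a cell type and less of a miRNA per vesicle cannot be told apart.

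**Figure D2:**
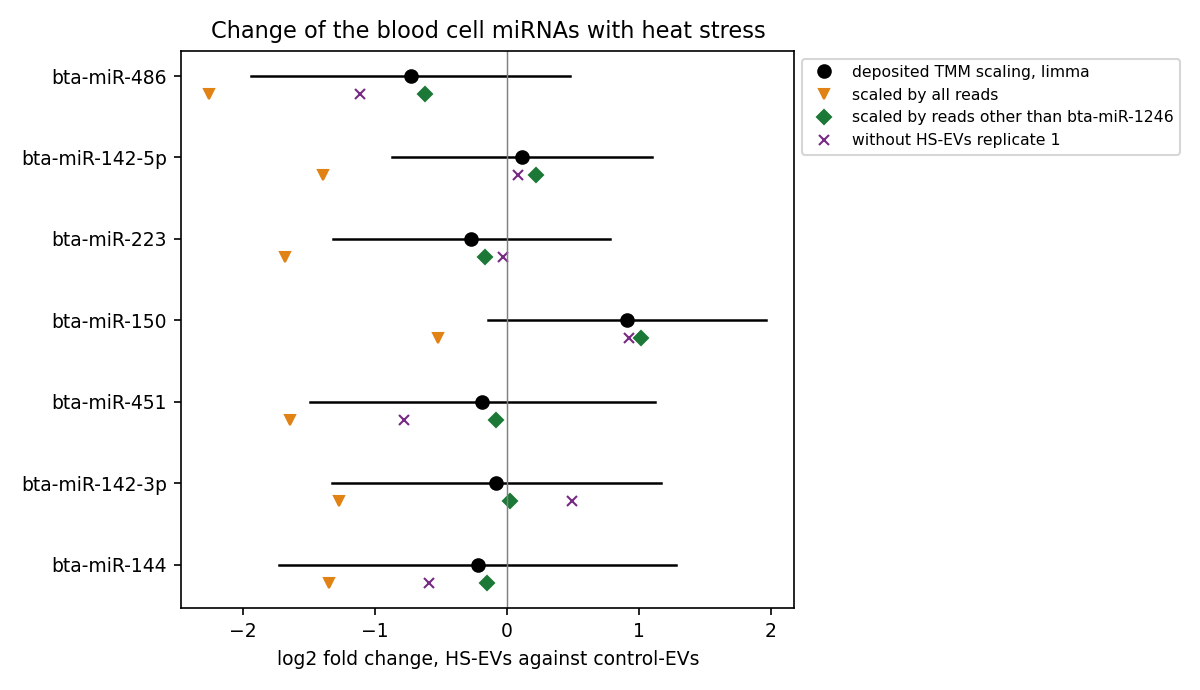
Log2 fold change of each blood cell miRNA, HS-EVs against control-EVs (n = 3 each), with the 95% interval of limma on the deposited scaling (black) and the value under other scalings and without HS-EVs replicate 1 (coloured marks). All 7 intervals include 0. Scaling by all reads moves every member to a lower value, and turns the sign of bta-miR-142-5p and bta-miR-150, while the median of all 512 miRNAs moves to -0.79. bta-miR-142-3p is above 0 when scaled without bta-miR-1246 and without HS-EVs replicate 1.

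Shares within the members do not depend on the scaling. bta-miR-486, bta-miR-451 and bta-miR-144 together made up 79.1% (95% Wilson interval 76.3 to 81.6), 73.9% (71.4 to 76.3) and 67.3% (62.7 to 71.6) of the members' reads in control-EVs replicates 1 to 3. In HS-EVs they made up 74.6% (69.1 to 79.5), 54.3% (50.1 to 58.5) and 52.4% (47.8 to 56.9). These 3 miRNAs thus held the larger part in all 6 libraries, mostly through bta-miR-486, whose muscle part was not tested, and the low values of HS-EVs replicates 2 and 3 were not shared by HS-EVs replicate 1, which lay inside the range of control-EVs. The mean share was 73.4 ± 5.90% in control-EVs and 60.4 ± 12.3% in HS-EVs (SD, n = 3). bta-miR-486 alone accounted for 70.1 ± 5.69% and 56.5 ± 10.6%, and bta-miR-451 with bta-miR-144 for 3.29 ± 0.213% and 3.96 ± 1.84%.

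The leukocyte members held the rest of the reads. Both arms of miR-142 held 18.4 ± 2.41% of the members' reads in control-EVs and 27.0 ± 7.59% in HS-EVs, and bta-miR-223 held 5.80 ± 3.06% and 6.42 ± 3.04%. The share of bta-miR-150 was 1.81% (1.12 to 2.92), 2.14% (1.46 to 3.11) and 3.08% (1.81 to 5.20) in control-EVs and 4.10% (2.31 to 7.20), 5.41% (3.79 to 7.66) and 8.80% (6.55 to 11.7) in HS-EVs. As with its level, the groups did not overlap, with the smallest gap between control-EVs replicate 3 and HS-EVs replicate 1. The interval of HS-EVs replicate 1 overlapped those of all control libraries, and that of HS-EVs replicate 2 overlapped that of control-EVs replicate 3. Only the interval of HS-EVs replicate 3 lay clear of all control libraries. Summed normalized counts of bta-miR-486, bta-miR-451 and bta-miR-144 were 3.78, 2.84 and 2.06 times those of the leukocyte members in control-EVs and 2.94, 1.19 and 1.10 times in HS-EVs. For bta-miR-451 and bta-miR-144 without bta-miR-486 the same ratio was 0.168, 0.126 and 0.0942 in control-EVs and 0.235, 0.0776 and 0.0495 in HS-EVs, so they lay below the leukocyte members in every library. These shares and sums were given no test. The intervals cover counting error only, and they are too narrow where the recovered reads are not separate molecules.

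**Figure D3:**
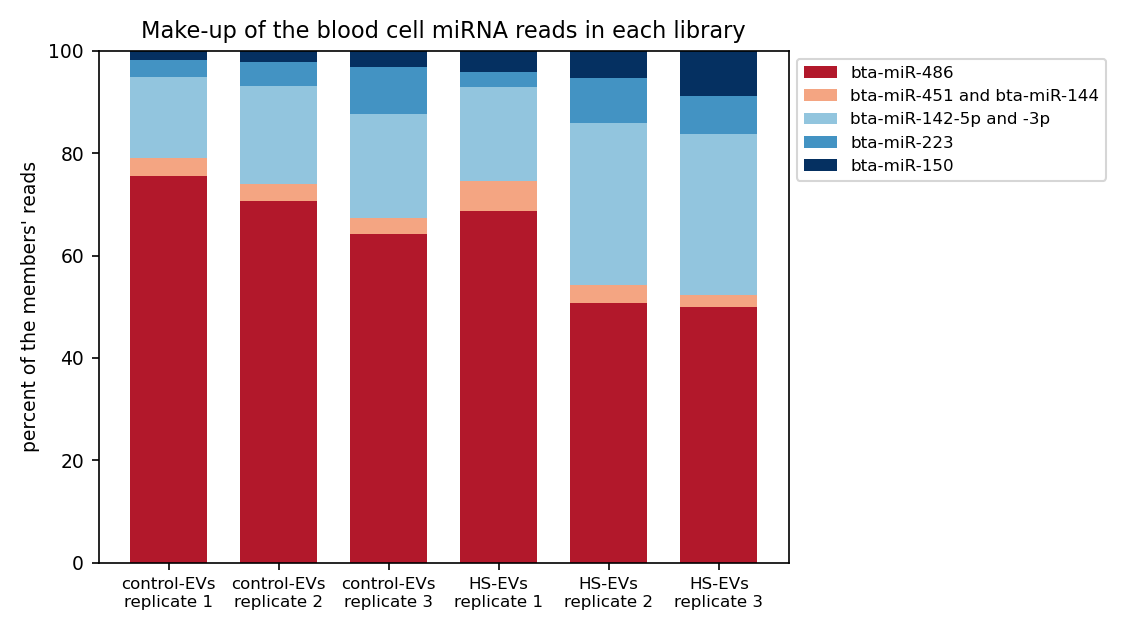
Make-up of the blood cell miRNA reads in each EV library, in percent of the reads on the 7 members. Each bar is 1 library and is split into bta-miR-486, the other erythroid members, both arms of miR-142, bta-miR-223 and bta-miR-150. bta-miR-486, bta-miR-451 and bta-miR-144 together are 67.3% to 79.1% in control-EVs and 52.4% to 74.6% in HS-EVs. Most of this is bta-miR-486, whose muscle part was not tested. bta-miR-451 with bta-miR-144 are 3.08% to 3.51% in control-EVs and 2.36% to 5.97% in HS-EVs.

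Ratios of 2 miRNAs within a library are free of the scaling as well, and 6 were compared as the log2 of the ratio of reads with 0.5 added. bta-miR-451 against bta-miR-144, the 2 products of 1 transcript, had ratios of reads of 2.44, 12.3 and 5.50 in control-EVs and 7, 5.33 and 4.50 in HS-EVs. With so few bta-miR-144 reads the exact 95% intervals were wide, such as 3.91 to 62.5 in control-EVs replicate 2, and the groups differed by -0.06 (exact permutation p = 1), or by -0.21 without HS-EVs replicate 1. bta-miR-451 against bta-miR-486 was steadier, between 0.0329 (interval 0.0205 to 0.0503) in control-EVs replicate 1 and 0.0761 (0.0408 to 0.131) in HS-EVs replicate 1. The log2 ratio was -4.66 ± 0.20 in control-EVs and -4.11 ± 0.48 in HS-EVs, a difference of 0.55 (exact permutation p = 0.3) that was 0.33 without HS-EVs replicate 1.

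For the arms of miR-142, 3p reads were 8.63% (95% Wilson interval 5.01 to 14.5), 11.2% (7.73 to 15.8) and 12.8% (7.29 to 21.5) of the reads of both arms in control-EVs. In HS-EVs they were 4.08% (1.13 to 13.7), 14.2% (9.73 to 20.3) and 13.7% (9.05 to 20.2). The 5p arm thus dominated in all libraries, and the intervals of all 6 overlapped. The log2 ratio of the arms differed by -0.14 between the groups (exact permutation p = 1), and by 0.41 without HS-EVs replicate 1.

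Between lineages, bta-miR-223 against bta-miR-150 gave ratios of 1.88, 2.23 and 3.00 in control-EVs and 0.727, 1.62 and 0.854 in HS-EVs. The myeloid miRNA had more reads than the lymphoid one in every control library and in 1 of 3 HS-EVs libraries. The exact interval of the ratio lay above 1 only in control-EVs replicates 2 (1.38 to 3.69) and 3 (1.57 to 6.13). It included 1 in control-EVs replicate 1 (0.990 to 3.68) and in HS-EVs replicates 1 (0.254 to 1.99), 2 (0.999 to 2.67) and 3 (0.528 to 1.37). Which miRNA led was thus not resolved by the counts in these libraries. The log2 ratio was 1.19 ± 0.33 in control-EVs and 0.01 ± 0.60 in HS-EVs. The difference was -1.18, with no overlap between the groups. Its exact permutation p of 0.1 was the smallest possible, and it became 0.6 after Benjamini-Hochberg adjustment over the 6 ratios. Leaving out any single library kept it between -1.52 and -0.96, the latter without HS-EVs replicate 1. bta-miR-451 against bta-miR-150 differed by -1.12 (exact permutation p = 0.2), by -1.72 without HS-EVs replicate 1 and by -0.49 without HS-EVs replicate 3. bta-miR-451 against bta-miR-223 differed by 0.07 (exact permutation p = 1) and by -0.76 without HS-EVs replicate 1. All 6 adjusted values were 0.6 or 1.

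**Figure D4:**
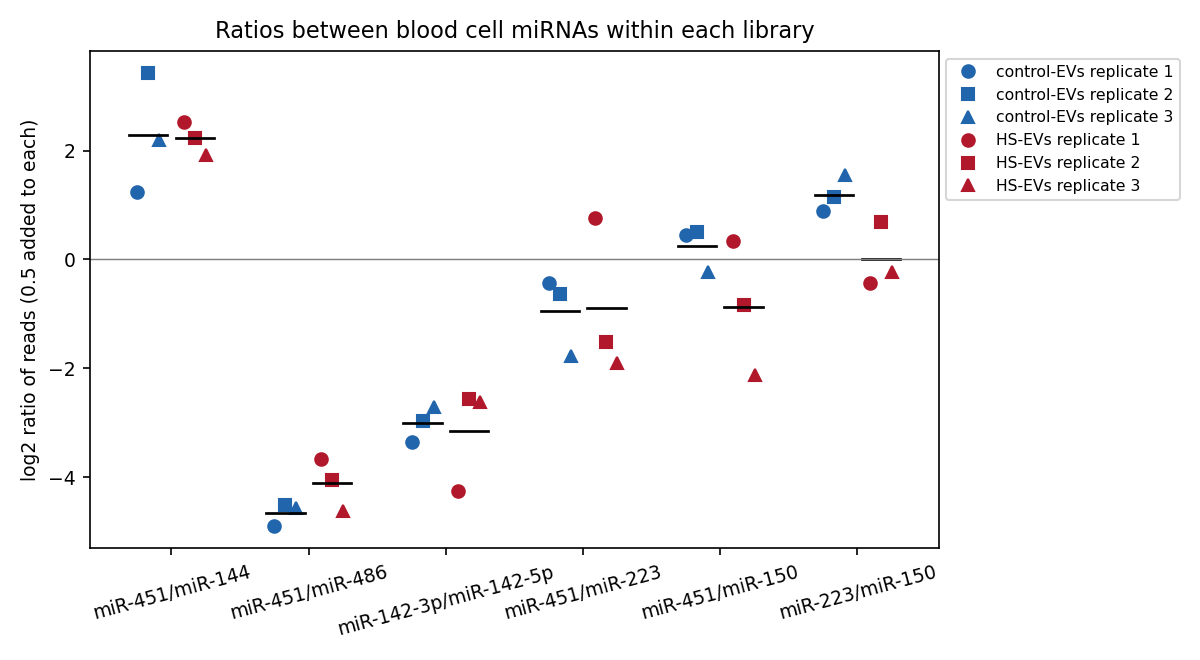
Log2 ratios of reads between pairs of blood cell miRNAs within each EV library (0.5 added to both counts). Points are libraries and black lines are group means (n = 3). The groups do not overlap for miR-223/miR-150, where control-EVs have a mean of 1.19 and HS-EVs of 0.01, and overlap for the other 5 pairs.

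Co-variation over the 6 libraries was examined for the same 6 pairs on log2(count + 1). bta-miR-451 and bta-miR-486 varied most closely together (Pearson's r = 0.81, exact permutation p = 0.0514, Spearman's rho = 0.89, exact permutation p = 0.0333). After adjustment over the 6 pairs these p-values were 0.308 and 0.2 (exact permutation tests). The relation held at r = 0.81 without the 2 libraries farthest from the median of bta-miR-451, which were both libraries numbered 1, and at r = 0.95 without HS-EVs replicate 1 alone, an omission added after seeing the data. bta-miR-451 and bta-miR-144 had r = 0.72 (rho = 0.60, exact permutation p = 0.107 and 0.242), which rested on those 2 libraries, since r was -0.51 without them.

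For the leukocyte pairs and the pairs across lineages, r over the 6 libraries was small or changed with the libraries left out. The 2 arms of miR-142 had r = 0.00 (rho = 0.43, exact permutation p = 1 and 0.419) and 0.45 without HS-EVs replicate 1. Their r moved with the scaling, to 0.12 when scaled without bta-miR-1246 (0.64 without HS-EVs replicate 1) and to 0.99 when scaled by all reads (0.53 without HS-EVs replicate 1). bta-miR-451 with bta-miR-223 had r = -0.60 (rho = -0.60, exact permutation p = 0.207 and 0.242), and r was -0.15 without HS-EVs replicate 1. bta-miR-451 with bta-miR-150 had r = -0.12 (rho = -0.26, exact permutation p = 0.829 and 0.658), but r was -0.58 without HS-EVs replicate 1 and -0.96 without the 2 libraries farthest from the median, which leaves 4. bta-miR-223 with bta-miR-150 had r = -0.05 (rho = -0.03, exact permutation p = 0.943 and 1), with 0.28 without HS-EVs replicate 1 and 0.83 without its own 2 farthest libraries, HS-EVs replicate 1 and control-EVs replicate 3. Within a group there were only 3 libraries, so no relation was computed there. All values of 1 library share its scaling factor, and when counts were scaled by all reads r over the 6 libraries lay between 0.68 and 0.99. That range rested on HS-EVs replicate 1, without which r in this scaling was 0.92 for bta-miR-451 with bta-miR-486 and between -0.79 and 0.53 for the other 5 pairs.

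**Figure D5:**
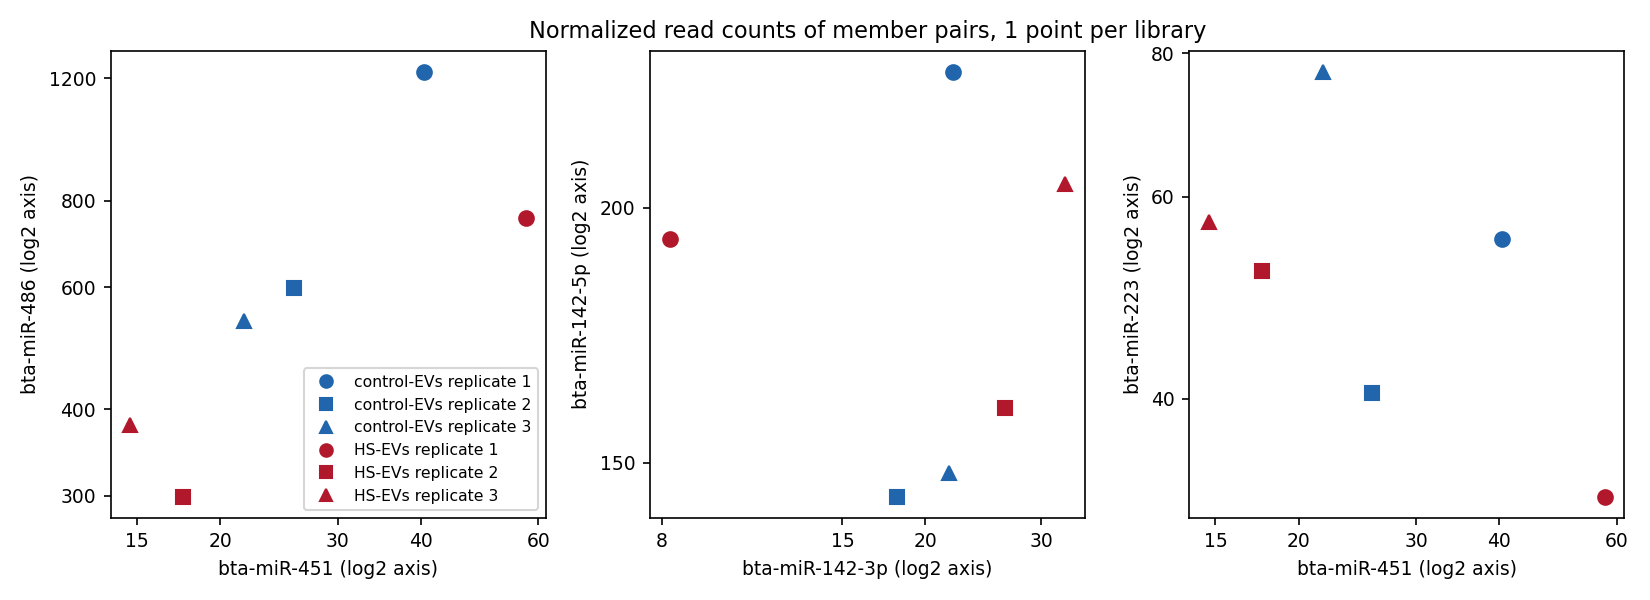
Normalized read counts of 3 pairs of blood cell miRNAs, 1 point per EV library, both axes on a log2 scale. bta-miR-451 and bta-miR-486 (left) rank the libraries in nearly the same order (rho = 0.89), the 2 arms of miR-142 (middle) have r = 0.00, and bta-miR-451 and bta-miR-223 (right) have r = -0.60, with HS-EVs replicate 1 as the highest for bta-miR-451 and the lowest for bta-miR-223.

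The spread of a log2 ratio over the 6 libraries needs no scaling and was computed for all pairs of members. Its SD was smallest for bta-miR-223 with bta-miR-142-3p (0.41) and for bta-miR-451 with bta-miR-486 (0.44), and largest for bta-miR-144 with bta-miR-142-3p (1.35). The pairs with a shared source lay between, at 0.64 for the arms of miR-142 and 0.72 for bta-miR-451 with bta-miR-144. Low counts limit this for several members. The variance of the normalized counts was 1.38 times what counting alone gives for bta-miR-142-3p, 2.41 times for bta-miR-223, 3.95 times for bta-miR-451 (2.57 times without HS-EVs replicate 1) and 114 times for bta-miR-486. This ratio grows with depth, and the coefficients of variation of bta-miR-451 and bta-miR-486 were alike at 55.3% and 52.6%. At their depth the values of bta-miR-142-3p are hardly separable from counting error.

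The same SD was used to find the miRNAs most like a member, among the 127 miRNAs with at least 10 reads in every library that are no members. For bta-miR-451 these were bta-miR-423-5p (SD 0.42), bta-miR-328 (0.47), bta-miR-542-5p (0.50), bta-let-7g (0.52) and bta-miR-3431 (0.52), where the median of the 127 was 0.87. The member bta-miR-486, at 0.44, would have ranked after bta-miR-423-5p and before bta-miR-328. For bta-miR-223 they were bta-miR-2285bf (0.25), bta-miR-1306 (0.27), bta-miR-222 (0.34), bta-miR-186 (0.35) and bta-miR-19b (0.37), with a median of 0.61. For bta-miR-150 they were bta-miR-99b (0.19), bta-miR-29b (0.22), bta-miR-1307 (0.31), bta-miR-26b (0.31) and bta-miR-23b-3p (0.32), with a median of 0.79. None of the 15 stood on the list of other blood-linked miRNAs. That list holds 14 miRNAs, so at most 14 of the 127 stood on it, and nothing can be read from this count. All libraries share their depth and scaling between miRNAs, and these likenesses over 6 libraries are a description.

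A wider list of 14 miRNAs linked to blood cells, platelets or vessel walls was listed in full, although bta-miR-363 had only 3 reads and was at 0 in 3 libraries. None was called, 1 had an unadjusted limma p of 0.05 or less (against 4.88% of all miRNAs), 9 had a log2 fold change above 0 and 5 below 0, and the median was 0.23 against 0.01 over all miRNAs. The 4 with the most reads are also made by many other cells. bta-miR-155, a miRNA of activated lymphocytes and macrophages, was at 10387 ± 2344 in control-EVs and 11978 ± 3811 in HS-EVs (log2 fold change 0.18, SE 0.47). bta-miR-16b, of the widely expressed miR-15/16 family, was at 6338 ± 2149 and 4530 ± 886 (-0.44, SE 0.47). bta-miR-92a and bta-miR-25, related miRNAs of clusters that are active in dividing cells, were at 5871 ± 1077 and 4584 ± 1258 (-0.38, SE 0.45) and at 2654 ± 844 and 1798 ± 455 (-0.54, SE 0.47). The limma adjusted p was 0.873 or 0.952 for these 4. All 4 exceeded bta-miR-486, the highest of the 7 members, on the means of both groups. The miRNA under 0.05 was bta-miR-181a, a miRNA of lymphocyte development named here after its values were seen. It had 6, 15 and 1 reads in control-EVs and 5, 19 and 17 in HS-EVs, or 11.01, 10.5 and 1.98 against 20.5, 20.9 and 27.7 normalized counts. Like bta-miR-150 it did not overlap between the groups (log2 fold change 1.68, SE 0.60, limma adjusted p = 0.785).

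bta-miR-122, a liver miRNA that is released into serum, was far above every member in both groups. It was at 19661 ± 6744 in control-EVs and 10332 ± 3084 in HS-EVs (log2 fold change -0.91, SE 0.49, limma adjusted p = 0.873). The log2 ratio of bta-miR-486 to bta-miR-122 was -3.32, -5.41 and -5.31 in control-EVs and -4.17, -5.04 and -4.31 in HS-EVs, so the 2 did not keep a fixed ratio, and the libraries numbered 1 had the most bta-miR-486 per bta-miR-122. The part of serum RNA in the members' values was not tested.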

How the data were processed

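Small RNA libraries with unique molecular identifiers were made from EVs, 3 libraries at 37 °C and 3 at 42 °C, as the labels give them. The authors trimmed reads (cutadapt 1.11), collapsed those with the same identifier, mapped them with Bowtie2 2.2.2 to UMD3.1 and to miRBase, and normalized counts by TMM in edgeR. The deposited values are this normalized signal, 1 per miRNA and library. In each library the lowest nonzero value was taken as 1 read, and all values (100%) were whole numbers of reads (tolerance 0.001). If the rarest miRNA had more reads, all reads would be too low by that factor. The totals exceed the miRNA-mapped reads in the supplement of the study, so whether 1 recovered read is 1 collapsed molecule is not known. A floor of 3 reads marks the limit of counting.

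limma 3.58.1 (R 4.3.3) was run on log2(value + 1) for the full set of 512 miRNAs, unfiltered, with Benjamini-Hochberg adjustment. edgeR 4.0.16 and DESeq2 1.42.0 on the recovered reads, other scalings, pseudocounts (0.5, 5 and 10), a filter, a replicate block and leaving out libraries were alternatives. Single values were compared by two-sided exact permutation (10 divisions, smallest p 0.1), and correlations by all 720 pairings. The tests were tested on simulated data. All 15 pairs of libraries differed beyond sampling noise. The study calls the libraries biological replicates, but nothing in the sources states which cultures they were, so p-values measure the spread between these libraries. The rule for named miRNAs gave the 7 members, bta-miR-1246, the 5 most alike to bta-miR-451, bta-miR-223 and bta-miR-150, and the 4 most read of the other list. The markers of granulosa cells, liver and muscle are named as checks, and bta-miR-181a and both arms of miR-126 were chosen after their values were seen. The members, lists and tests were chosen with earlier results of these data known.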

Additional observations from a re-analysis of the deposited data

How the results depend on the processing

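No member was called under any of the 19 other settings. At an unadjusted p of 0.05 or less limma had 1 of 7 members, bta-miR-150 with a pseudocount of 5 (30 of 512 miRNAs) or 10 (26) and without HS-EVs replicate 2 (30), and bta-miR-486 with the trend (25), when scaled by all reads (17) and without both libraries numbered 1 (58). Over all 512 miRNAs the number of calls was 0 by limma, 1 with a pseudocount of 0.5, 2 with limma's trend, 3 with edgeR's quasi-likelihood test, 31 without both libraries numbered 1 (2 libraries per group) and 0 to 4 when 1 library was left out. The replicate numbers gave correlations of deviations of 0.14, 0.14 and 0.08, so they were not taken as pairs, although 6 of 6 libraries correlated best with their own number. With the replicate block there were 0 calls by limma and 7 by edgeR's quasi-likelihood test, none of them a member. At an unadjusted p of 0.05 or less the latter had 2 of 7 members (bta-miR-150 and bta-miR-486) and 28 of 512 miRNAs.

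Over leave-one-out fits the log2 fold change of bta-miR-486 ranged from -1.12 to -0.36 and that of bta-miR-223 from -0.49 to -0.034, which is near 0 though below it. That of bta-miR-451 ranged from -0.78 to 0.17 over leave-one-out fits, being 0.06 without control-EVs replicate 1, 0.05 without HS-EVs replicate 2 and 0.17 without HS-EVs replicate 3. bta-miR-144 ranged from -0.75 to 0.50 over these fits, was 0.13 without both libraries numbered 1, -0.64 by edgeR, -0.72 by DESeq2 and -1.35 when scaled by all reads, and could not be tested under the filter. bta-miR-142-5p was -1.40 when scaled by all reads, and ranged from -0.0074 (without control-EVs replicate 2) to 0.34 over leave-one-out fits. bta-miR-142-3p was 0.021 when scaled without bta-miR-1246, 0.25 by edgeR, 0.18 by edgeR with the replicate block, 0.15 by DESeq2, -0.44 to 0.49 over leave-one-out fits (the latter without HS-EVs replicate 1) and 0.54 without both libraries numbered 1. bta-miR-150 was -0.52 when scaled by all reads. Scaled by all reads, bta-miR-486 was at -2.26, bta-miR-223 at -1.69 and bta-miR-451 at -1.65, where the median of all miRNAs was -0.79. The causes were not tested.

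Leaving out 1 library took the group difference of the log2 ratio from -0.58 to 0.51 for miR-451/miR-144, from -0.43 to 0.41 for the arms of miR-142 from -0.76 to 0.58 for miR-451/miR-223, from -1.72 to -0.49 for miR-451/miR-150 and from 0.33 to 0.80 for miR-451/miR-486. Scaled by all reads, r was 0.977 for miR-451 with miR-486 (adjusted exact permutation p = 0.00833), 0.871 for miR-451 with miR-223, 0.681 for miR-451 with miR-150 and 0.927 for miR-223 with miR-150, which without HS-EVs replicate 1 became 0.925, 0.418, -0.791 and 0.0054. In the other scalings the last was 0.136 when scaled without bta-miR-1246 (-0.441 there without the 2 farthest), 0.827 without the 2 farthest libraries and 0.284 without HS-EVs replicate 1 (deposited scaling for both). For miR-451 with miR-144 it was -0.51 without the 2 farthest. Depth limits bta-miR-144 and bta-miR-142-3p most, at 2 to 9 and 2 to 26 reads per library.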

Other observations

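Both arms of miR-126, a miRNA of vessel walls and platelets, had their 2 highest values in the libraries numbered 1, as bta-miR-486 and bta-miR-451 did. bta-miR-126-3p was at 648, 114 and 215 in control-EVs replicates 1 to 3 (353, 163 and 109 reads) and at 777, 186 and 412 in HS-EVs replicates 1 to 3 (189, 169 and 253 reads). bta-miR-126-5p was at 116, 15.3 and 57.3 in control-EVs and at 82.2, 26.4 and 61.9 in HS-EVs. The groups overlapped for both arms, with log2 fold changes of 0.63 (SE 0.73, limma adjusted p = 0.873) and 0.12 (SE 0.74, limma adjusted p = 0.972). These were 2 of the 14 other blood-linked miRNAs (14.3%), where 37 of all 512 miRNAs had the order (7.23%). Among the miRNAs with 10 or more reads in every library the share was 13.8%, but several of the 14 fall short of that depth. From the 2 arms of miR-126 nothing can be read about the list as a group, and the order was noticed after the values had been seen.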
